A study of Rattus norvegicus with 8 samples.

Results

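Cholesteryl ester storage and release was followed through 9 genes, Plin2, Plin3, Soat1, Lipe, Lipa, Nceh1, Npc1, Npc2 and Osbp, in rat ovary. Members were the array probes whose gene name in the scanner files equals one of these symbols. All 9 genes were found, with 13 probes in all out of 30367 on the array, which carries 26214 gene names. Whole-ovary RNA was hybridised to Agilent rat arrays in 1 colour, with 4 arrays labelled PMSG and 4 labelled control. PMSG, pregnant mare serum gonadotropin, is a hormone preparation that acts on the ovary in part as follicle-stimulating hormone does. At an age of 26 days, female rats were given a subcutaneous dose of 50 IU PMSG, dissolved in 0.2 ml phosphate buffer with albumin, or this buffer alone. Ovaries were taken after 48 h, at 28 days. No strain, allele or other treatment was given in the labels. Nor do they say whether each array is a separate animal, so p-values measure only the spread between these samples, which may be technical.

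Part of the cholesterol that a steroid-producing cell takes up with lipoproteins arrives as esters in lysosomes, where Lipa, the lysosomal acid lipase, frees it. Npc2, a soluble carrier, and Npc1, a membrane protein, then pass it out of the lysosome. Surplus cholesterol is esterified in the endoplasmic reticulum by Soat1 and kept in lipid droplets coated by perilipins such as Plin2 and Plin3. Lipe, hormone-sensitive lipase, and Nceh1, neutral cholesterol ester hydrolase, release it again, and Osbp carries sterols between membranes. In the ovary these stores are a source of cholesterol for progesterone and other steroids in theca, interstitial and luteal cells.

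Values are log2 signal minus the array's 75th percentile, which lay at signals from 768.9 to 1103 on the 8 arrays. A probe was tested where it stood well above background on at least 4 of the 8 arrays, which held for 25303 probes and for all 13 member probes. All member probes but 1 of Osbp, so 12 of 13, met that detection criterion on every array. With limma and Benjamini-Hochberg adjustment over all tested probes, 8658 probes (34.2%) differed at an adjusted p under 0.05, 4206 (16.6%) of them lower in the arrays labelled PMSG. Of the differing probes 51.4% were higher in those arrays, against 34.5% after centring arrays on their median and 61.3% without PMSG array 4. The difference of the median tested probe (log2) was 0.11, or -0.05 once arrays were centred on their median, and member differences stand against that offset. Every direction here follows the sample titles. Gonadotropin is generally known to raise the steroid synthesis genes Star and Cyp11a1, whereas both were lower in the arrays labelled PMSG, as given further on. Whether the titles match the arrays was not tested. Markers of the oocyte were present (Zp1 at -0.83 to 0.03 in control-labelled and 0.76 to 2.15 in PMSG-labelled arrays), and so were all 8 granulosa cell markers looked for.

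Of the 13 member probes 7 differed, all 7 lower in the arrays labelled PMSG and none higher, where 16.6% of all tested probes were lower at this threshold. By the names in the files they belong to 6 genes, Soat1, Plin2, Plin3, Lipa, Npc1 and Npc2, of which Plin3 is uncertain, as given with its probes. At an unadjusted p under 0.05 there were 9 member probes, all lower, and 45.4% of all tested probes in either direction. In the same 7 probes the values of the 4 PMSG-labelled and 4 control-labelled arrays did not overlap, as in 36.6% of all tested probes (18.6% without overlap and lower). The median log2 difference of the 13 probes was -0.58, and 12 of them had a lower mean in the arrays labelled PMSG. Only Soat1 differed by at least 2-fold, and it fell short of that with normexp background correction (log2 -0.86) or without PMSG array 4 (-0.98). The probes of Lipe, Nceh1 and Osbp did not pass. When single arrays were left out the count of differing member probes ran from 6 to 8.

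**Figure D1:**
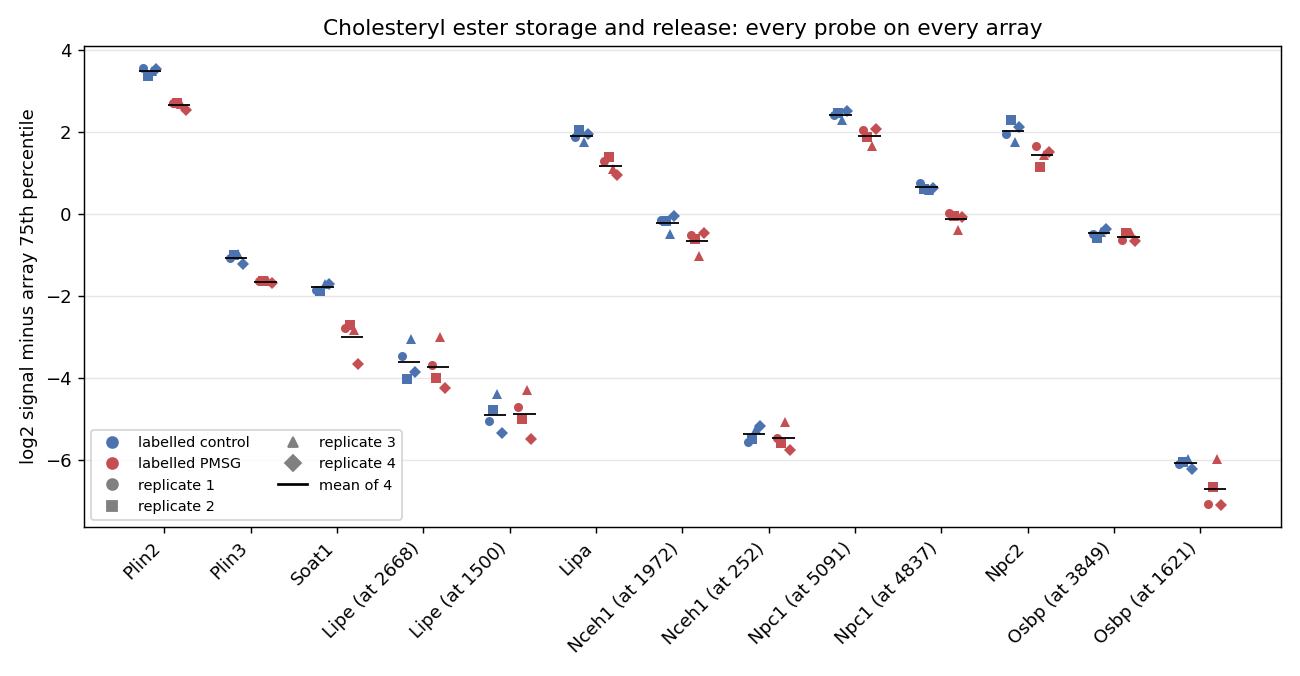
Level of each of the 13 member probes on every array, as log2 signal minus the array's 75th percentile (linear axis of log2 units), with controls in blue, PMSG in red, marker shape for the replicate number and a bar for the mean of 4. Genes with 2 probes carry the probe's start in the transcript in brackets; in Soat1 the controls lie from -1.90 to -1.72 and the PMSG arrays from -3.66 to -2.71, while both Lipe probes overlap.

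The largest decrease was that of Soat1, the enzyme that makes cholesteryl esters. On control-labelled arrays 1 to 4 its level was -1.86, -1.90, -1.73 and -1.72. On PMSG-labelled arrays 1 to 4 it was -2.80, -2.71, -2.84 and -3.66. The groups did not overlap, the controls lay close together, and PMSG array 4 was far below the other arrays. Soat1 fell by 1.20 on the log2 scale (SE 0.21, n = 4 per group, limma adjusted p = 0.00300), which leaves 43.5% of the control level. Leaving out PMSG array 4 gave -0.98 (limma adjusted p = 0.000508). With normexp background correction Soat1 differed by -0.86 (limma adjusted p = 0.00121), at signals from 85.7 to 334.8. Only 3.49% of all tested probes had a more negative difference than Soat1. Its probe begins at base 1244 of transcript NM_031118 and spans 71423884 to 71424171 of chromosome 13 (build rn4, minus strand). These 288 bases exceed the probe's 60, so the probe joins separate genomic blocks of the transcript. The probe is shown because the largest difference rests on it alone:

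Soat1 probe: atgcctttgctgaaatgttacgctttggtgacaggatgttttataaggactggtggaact

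Plin2, the perilipin that coats droplets in most cells other than adipocytes, was bright in all samples. Its level was 3.55, 3.36, 3.47 and 3.54 in controls and 2.70, 2.69, 2.68 and 2.52 under the PMSG label. Each PMSG-labelled array lay below every control-labelled one by at least 0.66. Plin2 fell by 0.83 (log2, SE 0.09, limma adjusted p = 0.000446), to 56.2% of the control level. The signal went from a mean of 11727 to 6004 in scanner units. Its probe lies on chromosome 5 from 105718623 to 105718682 (rn4), from base 1647 of NM_001007144.

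Plin3, a perilipin that also moves between cytosol and droplets, gave different results on different probes. The member probe stood at -1.08, -1.02, -0.999 and -1.22 in controls and at -1.65, -1.65, -1.65 and -1.70 under the PMSG label. The groups did not overlap, and the difference was -0.58 (log2, SE 0.09, limma adjusted p = 0.00159). It is placed on chromosome 20 from 23019960 to 23020019 (rn4) and assigned to transcript ENSRNOT00000035259. The files describe 2 further probes as perilipin 3 under the name ENSRNOT00000070978, on sequence not assigned to a chromosome. They were looked up after the member values had been seen. The one from base 1316 went from 1.14 ± 0.09 (SD, n = 4) to 0.86 ± 0.08, a difference of -0.29 (SE 0.09, limma adjusted p = 0.0418). The other, from base 1864, was the brightest and stood at 4.58 ± 0.10 (SD, n = 4) and 4.59 ± 0.10, a difference of 0.02 (limma adjusted p = 0.910, 95% interval -0.20 to 0.24). So the probes ascribed to Plin3 do not share 1 result. The transcript of the member probe had no symbol in RefSeq, and RefSeq places the Plin3 start on chromosome 9 of build GRCr8, whereas the probe lies on chromosome 20 of rn4. Which of these probes measures Plin3 is not settled here. The 2 that differed are shown for comparison:

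Plin3 member probe, from base 562: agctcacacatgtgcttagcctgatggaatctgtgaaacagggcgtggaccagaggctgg
ENSRNOT00000070978 probe, from base 1316: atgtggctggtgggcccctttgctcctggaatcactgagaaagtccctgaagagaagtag

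On the lysosomal side, Lipa was lower in all arrays labelled PMSG. Its level was 1.87, 2.03, 1.75 and 1.93 in controls and 1.28, 1.38, 1.097 and 0.93 under the PMSG label. No PMSG-labelled value reached the lowest control. Lipa fell by 0.72 (log2, SE 0.12, limma adjusted p = 0.00309), to 60.7% of the control level. The probe lies on chromosome 1 from 238467200 to 238467259 (rn4, minus strand), from base 2435 of NM_012732.

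Npc1 was measured by 2 probes that lie near each other on chromosome 18, from 3725425 to 3725484 and from 3725679 to 3725738 (rn4), and both were lower. The brighter probe stood at 2.39, 2.45, 2.28 and 2.50 in controls and at 2.04, 1.87, 1.64 and 2.06 under the PMSG label. The dimmer probe stood at 0.75, 0.60, 0.56 and 0.63 against 0.00, -0.05, -0.39 and -0.10. Neither probe's groups overlapped, and PMSG array 3 was the lowest on both. Their log2 differences were -0.50 (SE 0.12, limma adjusted p = 0.0135) and -0.77 (SE 0.11, limma adjusted p = 0.00141).

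Npc2, the soluble partner that hands cholesterol to Npc1, varied more between arrays. It stood at 1.95, 2.29, 1.74 and 2.12 in controls and at 1.64, 1.14, 1.42 and 1.49 under the PMSG label. The groups were separated by only 0.10, between control array 3 and PMSG array 1. Npc2 fell by 0.60 (log2, SE 0.16, limma adjusted p = 0.0188), to 65.9% of the control level. Without control array 2 (limma adjusted p = 0.0524) or control array 4 (0.0542) Npc2 did not pass; over all its alternatives the adjusted p lay between 0.00758 and 0.0577. The probe joins blocks between 108794590 and 108798310 of chromosome 6 (rn4, minus strand), from base 454 of NM_173118.

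The hydrolases of the cytosol and endoplasmic reticulum did not pass. Lipe, the hormone-sensitive lipase that is abundant in fat cells, was dim, with signals from 56.5 to 120.8 on its brighter probe. That probe stood at -3.48, -4.04, -3.05 and -3.87 in controls and at -3.70, -4.01, -3.01 and -4.26 under the PMSG label. The groups overlapped throughout, with array 3 the highest in both. The difference was -0.13 (SE 0.31, limma adjusted p = 0.753), and its 95% interval ran from -0.84 to 0.58. The second Lipe probe gave 0.02 (limma adjusted p = 0.960, 95% interval -0.64 to 0.68). The interval of the brighter probe reaches the decrease of Plin2, that of the second does not. The second does reach the decreases of the Plin3 member probe (-0.58), Npc2 (-0.60) and the brighter Npc1 probe (-0.50). The probes lie on chromosome 1 from 80667084 to 80667143 and from 80672329 to 80672388 (rn4).

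Adipocyte markers varied between arrays, in part along with Lipe. The summed scaled signal of the 8 adipocyte markers was 36.0, 10.04, 84.0 and 31.2 on control-labelled arrays 1 to 4 and 46.3, 58.8, 92.3 and 28.1 on PMSG-labelled arrays 1 to 4. Array 3 was thus the highest of its group for both these markers and Lipe. Control array 2, the lowest for these markers, was the lowest control for the brighter Lipe probe (-4.04). The second Lipe probe stood there at -4.79, above control arrays 1 and 4 (-5.05 and -5.36). Adipoq, the fat cell hormone adiponectin, ran from 1.82 to 4.16 in controls and from 2.98 to 4.19 in PMSG-labelled arrays. Of the 8 markers 1 passed (12.5%, against 34.2% of all tested probes), higher in the arrays labelled PMSG. None was below background on all arrays. Their part in the Lipe values was not tested.

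**Figure D2:**
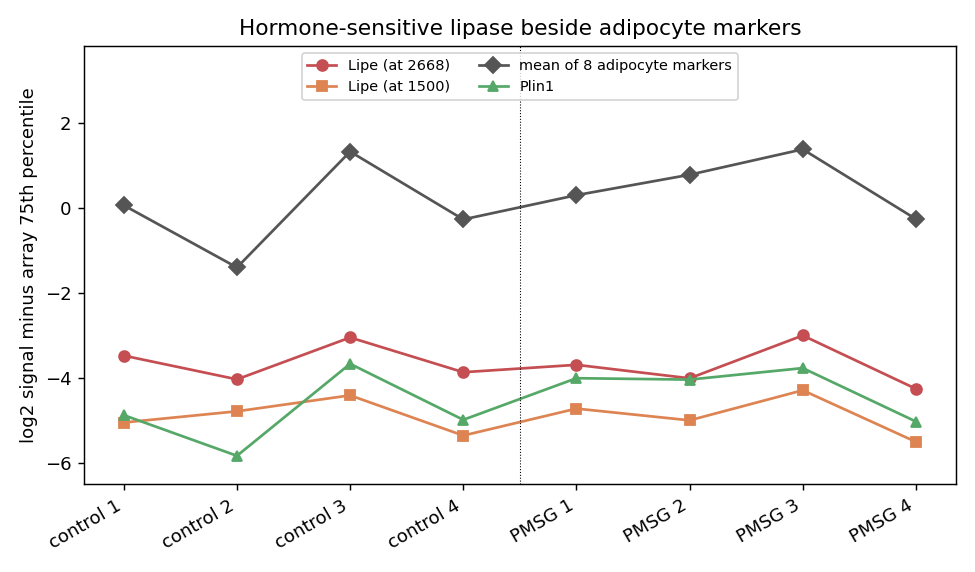
Level of both Lipe probes (brackets: start in the transcript), of Plin1 and of the mean of the 8 adipocyte markers on each array, as log2 signal minus the array's 75th percentile; the dotted line parts control from PMSG arrays. Control 3 and PMSG 3 are the highest of their groups for each of the 4 series; the Lipe probe from base 2668 stands at -3.05 and -3.01 there.

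Nceh1, a hydrolase of the endoplasmic reticulum, had a bright and a dim probe. The bright probe stood at -0.16, -0.19, -0.50 and -0.05 in controls and at -0.53, -0.63, -1.04 and -0.48 under the PMSG label. Only control array 3 fell among the PMSG-labelled values. The difference was -0.44 (SE 0.16, limma adjusted p = 0.0583, 95% interval -0.80 to -0.09) and missed the threshold. It passed without control array 3 (limma adjusted p = 0.0406) or PMSG array 4 (0.0394), and over all its alternatives the adjusted p lay between 0.0276 and 0.144. The dim probe, with signals from 19.7 to 30.2, gave -0.11 (limma adjusted p = 0.632). They lie on chromosome 2 from 113128163 to 113128222 and from 113107479 to 113107538 (rn4).

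Osbp, the oxysterol binding protein that exchanges cholesterol at contacts of the endoplasmic reticulum with the Golgi, had values close to each other on its bright probe. These were -0.51, -0.59, -0.45 and -0.37 in controls and -0.64, -0.49, -0.46 and -0.67 under the PMSG label. The groups overlapped, and the difference was -0.09 (SE 0.10, limma adjusted p = 0.502). Its 95% interval, from -0.31 to 0.14, does not reach the decrease of any member probe that passed. The other Osbp probe was spotted 10 times and lay at the detection limit, with signals from 7.25 to 15.9. It was well above background on 4 control-labelled arrays and 1 PMSG-labelled array. Its difference of -0.62 did not pass (limma adjusted p = 0.0772), but did without PMSG array 3 (0.00379). Its adjusted p lay between 0.00379 and 0.963 over the alternatives, and normexp background correction brought the difference to 0.01. The probes lie on chromosome 1 from 214843000 to 214843059 and between 214836781 and 214838053 (rn4).

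**Figure D3:**
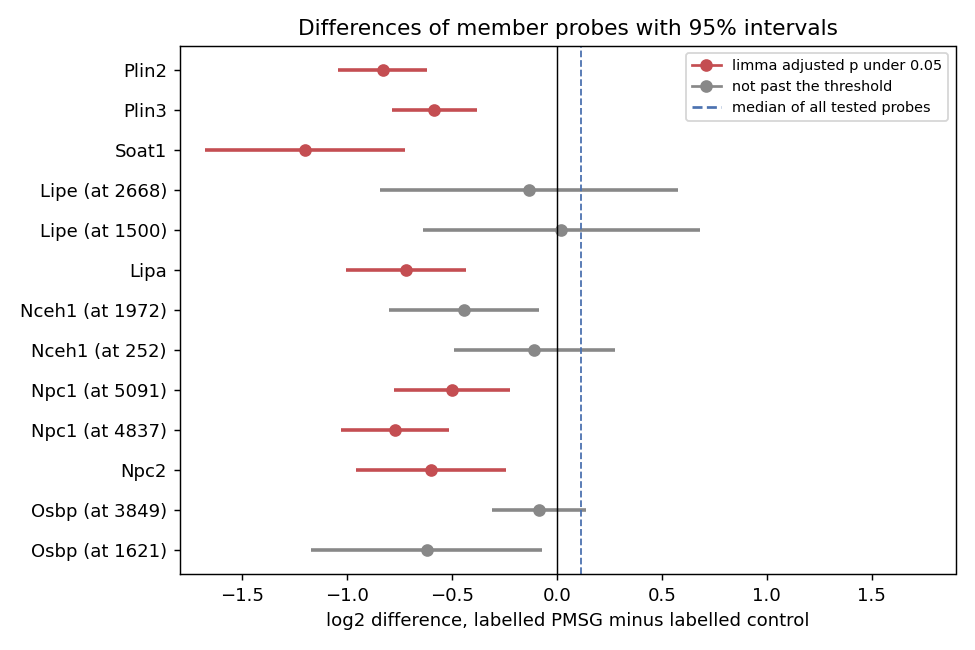
Log2 difference (PMSG minus control) of the 13 member probes; points are estimates of limma, bars 95% intervals, red those with an adjusted p under 0.05, and the dashed line the median of all tested probes. All 7 red probes lie below 0, with Soat1 at -1.20 the lowest, and both Lipe intervals span 0.

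For the probes of Plin2, Soat1, Lipa and Npc2 with 2 spots each, the median SD between spots of an array was 0.02, 0.05, 0.03 and 0.02 (log2), against an SD between control-labelled arrays of 0.09, 0.09, 0.12 and 0.24. For Lipe it was 0.26 on each probe, against 0.44 and 0.40 between control-labelled arrays. The bright Osbp probe had 0.09 on both counts, and the dim one varied more between its 10 spots (0.35) than between control-labelled arrays (0.10). The arrays lie in 2 rows of 1 slide, and all 7 differing member probes were lower in the arrays labelled PMSG within each row. Since their groups did not overlap, this had to hold for any split of the arrays and is no separate result. Within rows Soat1 differed by -0.97 and -1.44, Plin2 by -0.76 and -0.90, Lipa by -0.74 and -0.70, and Npc2 by -0.92 and -0.28. The brighter Lipe probe differed by 0.44 in the first row and by -0.71 in the second.

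Of 25 other droplet, esterification and lipase genes listed 22 were tested, and 5 (22.7%, against 34.2% of all tested probes) passed. Of these 3 were higher and 2 lower in the arrays labelled PMSG, while 17 did not pass, with a median difference of 0.20 against 0.11 over all tested probes. Acsl4, a ligase that activates long polyunsaturated fatty acids, fell by 1.40 (log2, SE 0.12, limma adjusted p = 0.000188), from 2.24 ± 0.11 (SD, n = 4) to 0.84 ± 0.20. G0s2, an inhibitor of adipose triglyceride lipase, fell by 0.91 (SE 0.18, limma adjusted p = 0.00534) from a high level of 5.04 ± 0.11 (SD, n = 4). Cidea, a protein that makes droplets grow, rose by 1.85 (SE 0.37, limma adjusted p = 0.00577), and its other probe rose by 1.61. Dgat2, which makes triglycerides, rose by 1.72 (SE 0.50, limma adjusted p = 0.0291). Its groups overlapped, and without any one of 6 of the 8 arrays (all but control array 3 and PMSG array 4) it missed the threshold at adjusted p-values from 0.0594 to 0.0739. Cel, the bile salt-dependent lipase, rose by 1.097 (limma adjusted p = 0.00472) at signals from 11.54 to 40.8, but missed the threshold in the authors' deposited values (0.125) and under quantile normalization (0.0659). With normexp background correction the rise of Cel was 0.37. Dgat2 and Cidea are also expressed in fat cells, whose markers varied as given above; their part was not tested. Plin1, the perilipin of fat cells, differed by 0.63 and Soat2, the other cholesterol esterifying enzyme, by 0.85, and neither passed (limma adjusted p = 0.308 and 0.0840); both are named as relatives of members, after their values were seen.

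Among other genes of lysosomal and membrane sterol transfer, 27 of 28 listed were tested and 13 (48.1%) passed, 9 lower and 4 higher in the arrays labelled PMSG. Their median difference was -0.20. Stard4, a soluble carrier of cholesterol, had the largest decrease. It stood at 1.84, 1.71, 1.88 and 1.78 in controls and at 0.09, -0.09, -0.04 and -0.13 under the PMSG label. The gap between the groups far exceeds the spread within either, and Stard4 fell by 1.84 (log2, SE 0.09, limma adjusted p = 2.32e-05). Its other probe fell by 2.04. Tmem97, which binds Npc1 and influences its amount, fell by 1.21 (SE 0.12, limma adjusted p = 0.000254). Gramd1b, a sterol transporter at contacts of plasma membrane and endoplasmic reticulum, fell by 1.06 (limma adjusted p = 0.00307). Scarb2, the lysosomal membrane protein LIMP-2, fell by 0.85 (limma adjusted p = 0.000556). The genes that rose were Osbpl5 (0.76), Tfeb (0.63), Stard6 (0.62) and Osbpl7 (0.51), with limma adjusted p-values from 0.00158 to 0.00434. Tfeb is a transcription factor of lysosomal genes, and Osbpl5 and Osbpl7 are relatives of Osbp. Osbpl7 missed the threshold after median centring (limma adjusted p = 0.0943), and its other probe gave 0.17. The other 5 that fell were Vapa, Gramd1a, Mcoln1, Stard3nl and Lamp1, with differences from -0.74 to -0.36; they are named to complete the count, after their values were seen.

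**Figure D4:**
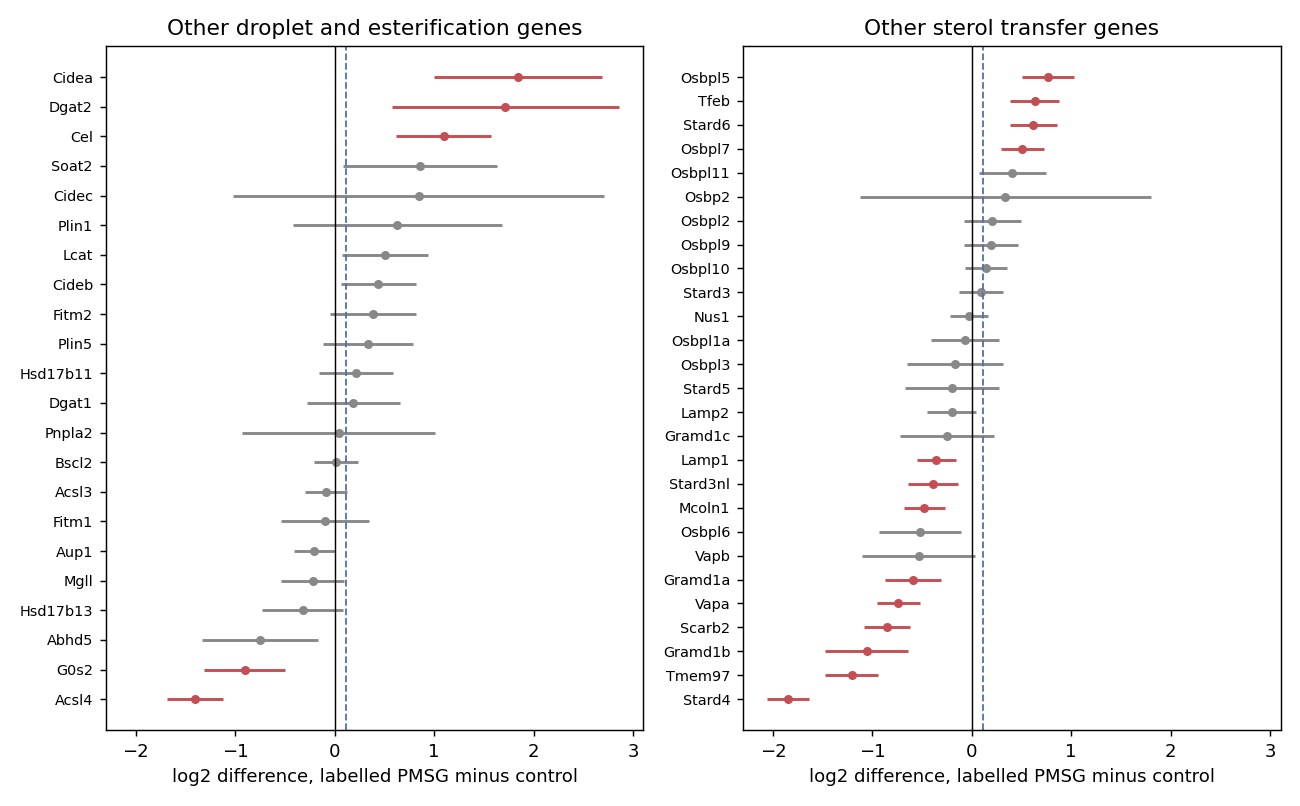
Log2 differences (PMSG minus control) of the brightest probe of each tested gene in the 2 lists, droplet and esterification genes at left (22) and sterol transfer genes at right (27); bars are 95% intervals, red marks an adjusted p under 0.05 and the dashed line the median of all tested probes. Cidea at 1.85 and Stard4 at -1.84 are the extremes.

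Markers of the cells that hold cholesteryl esters were also examined. Of all tested probes 34.2% passed in either direction, and the marker counts stand beside that share. In whole ovary, fewer cells of a type and less RNA per cell cannot be told apart. Of 8 markers of theca, interstitial and luteal cells 5 passed, 4 lower and 1 higher. Their summed scaled signal was 338.1 to 388.6 in control-labelled arrays and 152.2 to 258.0 in PMSG-labelled arrays, with the lowest value on PMSG array 4. That array also had the lowest Soat1, Plin2, Plin3 and Lipa, but the highest level of the bright Npc1 probe among PMSG-labelled arrays, and its Npc2 was above that of 2 of them. Among PMSG-labelled arrays it was lowest too for both Lipe probes, both Osbp probes and the dim Nceh1 probe, and highest for the bright Nceh1 probe. Its adipocyte, granulosa, oocyte and endothelial sums were likewise the lowest of these arrays (28.1, 96.6, 9.66 and 16.4), while its macrophage sum (15.0) was not. The low values of PMSG array 4 are thus not particular to steroid cell markers. Star ran from 4.68 to 4.92 and from 0.99 to 3.81, and Cyp11a1 from 6.51 to 6.74 and from 2.42 to 4.13. Insl3, a peptide hormone of theca cells, rose by 2.60 (SE 0.27, limma adjusted p = 0.000347). The steroid enzymes Hsd3b1 and Cyp17a1 differed by 0.07 and -0.22 and did not pass (limma adjusted p = 0.719 and 0.483). Lhcgr and Fdx1, which also passed, differed by -1.93 and -1.19. Insl3, Hsd3b1, Cyp17a1, Lhcgr and Fdx1 are named after their values were seen. Macrophages also store cholesteryl esters. Of 10 macrophage and leukocyte markers 4 passed (40%, near the 34.2% of all tested probes), all higher in the arrays labelled PMSG. The sum of the 10 was 9.19 to 12.0 in control-labelled and 13.7 to 15.9 in PMSG-labelled arrays, whereas their mean log2 level overlapped, at -1.61 to -1.03 and -1.29 to -0.97. The scavenger receptors Cd163, Msr1 and Mrc1, named after their values were seen, differed by -0.54, -0.73 and -0.36 and did not pass (limma adjusted p from 0.164 to 0.419). Ptprc, the leukocyte antigen CD45, ran from -2.01 to -1.59 and from -1.36 to -0.97. Of 6 endothelial markers 3 were lower and 1 higher, with sums of 19.9 to 23.4 and 16.4 to 18.1. Their mean log2 level overlapped, at -0.94 to -0.66 in control-labelled and -1.32 to -0.84 in PMSG-labelled arrays. All 6 oocyte markers were higher, with sums of 2.83 to 5.05 and 9.66 to 21.3. Of the 8 granulosa cell markers 3 were lower and 2 higher, with sums of 108.8 to 189.7 and 96.6 to 127.2. By log2 difference the lower ones were Nr5a2 (-1.47), Inhba (-1.32) and Inhbb (-0.57), the higher ones Amh (3.03) and Esr2 (0.95). They are named after their values were seen. No marker was below background on all arrays, and the part of these cells in the member values was not tested.

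The genes with profiles nearest to Soat1 over the 8 arrays were Med14, Cers2, Pde8a, Fdx1 and Ssr1. Nearness was the root-mean-square difference of log2 values, each taken relative to its control mean, and ran from 0.11 for Med14 to 0.16 for Ssr1. Med14 is a subunit of the Mediator complex, Cers2 makes ceramides, Pde8a breaks down cAMP, Fdx1 feeds electrons to Cyp11a1, and Ssr1 belongs to the translocon of the endoplasmic reticulum. Fdx1 is also one of the steroid cell markers above. PMSG array 4 was the lowest for each of these 5 as for Soat1, at -4.95 for Med14 and 4.17 for Fdx1. The genes were chosen by nearness over the same arrays, array 4 included, so this is no separate result.

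Promoter sequence was taken from RefSeq on build GRCr8, as windows from 250 bases before to 50 after each annotated start, and 8 of the 9 members matched, with 9 windows. Lipe had no entry. Motifs were searched on both strands: the sterol regulatory element TCACCCCAC, the lysosomal element TCACGTGA with the E-box CACGTG inside it, the cAMP element TGACGTCA, and the SF-1 element TCAAGGTCA with its core AAGGTCA. Of 33469 windows these were held by 0.484%, 0.777%, 6.42%, 1.83%, 0.433% and 4.61%. Among member windows only CACGTG was found, in 2 of 9. It begins 67 bases before a start of Plin2, which fell, and 54 bases before that of Nceh1, which did not pass. In the sterol transfer genes 4 of 26 windows held TCACGTGA, those of Lamp1, Mcoln1, Osbp2 and Osbpl6. A match is a description of letters and not a site. The part before the start is shown for the 2 members with a match, in capitals, and for Soat1, which had the largest difference and none of these letters. These lie at chr5:106229019-106229268 (minus strand), chr2:112003427-112003676 (plus strand) and chr13:71147673-71147922 (minus strand) in GRCr8:

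Plin2: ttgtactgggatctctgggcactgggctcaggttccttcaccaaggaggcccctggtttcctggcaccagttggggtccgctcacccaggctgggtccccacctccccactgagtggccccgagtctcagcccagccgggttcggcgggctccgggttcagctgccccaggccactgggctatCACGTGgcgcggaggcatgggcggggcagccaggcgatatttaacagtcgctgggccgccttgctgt
Nceh1: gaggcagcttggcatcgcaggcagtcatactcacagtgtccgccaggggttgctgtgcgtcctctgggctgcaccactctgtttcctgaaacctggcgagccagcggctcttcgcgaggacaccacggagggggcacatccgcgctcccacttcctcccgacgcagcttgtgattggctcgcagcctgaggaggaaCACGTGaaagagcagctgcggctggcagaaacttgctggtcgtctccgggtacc
Soat1: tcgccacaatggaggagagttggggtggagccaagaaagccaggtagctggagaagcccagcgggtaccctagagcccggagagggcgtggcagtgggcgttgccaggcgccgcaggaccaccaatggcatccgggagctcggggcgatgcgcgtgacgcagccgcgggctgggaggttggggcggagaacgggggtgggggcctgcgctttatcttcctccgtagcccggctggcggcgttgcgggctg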

How the data were processed

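Spot intensities were extracted by the authors with Agilent Feature Extraction 11.5.1.1, per the file headers, which give processed intensity corrected for background and trends within an array. Per the labels' protocols 500 ng of RNA per sample was labelled with Cy3. A second table deposited by the authors holds log2 values. Compared with the scanner output, its columns follow the log2 signal less the 75th percentile, without centring of genes. The signed median difference of a column was at most 0.0147, which does not bound single probes. Dim probes could differ more: the log2 difference between the labels was 0.75 there against 1.097 here for Cel, and -0.29 against -0.62 for the dim Osbp probe. Each column matched its own array best, and column medians were -3.21 to -2.82.

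Control and outlier spots were left out, log2 processed signals were averaged per probe, and each array's 75th percentile was subtracted. No spot was saturated. Of 30367 probes 17 had no usable spot on some array, and 25303 were tested with limma 3.58.1 in R 4.3.3 (lmFit, eBayes, no covariates), after a check on simulated data. A probe counts as well above background where at least 0.5 of its spots do. Lists use the brightest probe per gene. Coordinates are those of build rn4 in the files. Of the member probes 12 had an accession with the same symbol in RefSeq.

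Named are all members, up to 4 genes per direction with the largest difference in each pathway list, up to 3 leading markers of a list, and the 5 genes nearest to the member with the largest decrease. Members and lists were chosen with earlier results of these data known. Deviations of arrays with the same replicate number correlated at 0.0444, 0.0361, 0.183 and -0.0192 over the tested probes. This does not settle whether the numbers pair the arrays, since single genes may still vary with the number. With a replicate block the SE of the brighter Lipe probe went from 0.31 to 0.12, and that of Plin2 from 0.09 to 0.11. There was 1 slide and 1 scan time. The 18 alternatives changed background correction, scaling, filter, source of values, blocks, weights, trend and the arrays used.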

Additional observations from a re-analysis of the deposited data

Results flagged for a closer look

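In 3 of 52 groups of 4 values examined, 1 array lay far from the others, and chance flags about 1 in 20 groups, here 2.6. In each it was PMSG array 4. Soat1 stood there at -3.66 against -2.84 to -2.71 (gap 0.864 of the range), Plin2 at 2.52 against 2.68 to 2.70 (gap 0.869) and Plin3 at -1.70 against -1.65 to -1.65 (gap 0.894). Each of these genes still passed without that array. The cause was not tested.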

How the results depend on the processing

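Over 18 alternatives the count of probes differing between the labels ran from 6552 to 11382 (both with 1 array left out), and that of member probes from 6 to 9, none of them higher in the arrays labelled PMSG. Soat1, Plin2, the Plin3 member probe (whose gene is uncertain, as given above), Lipa and both Npc1 probes kept their call and direction in all 18. Npc2 lost its call in 3, the bright Nceh1 probe gained one in 5, and the dim Osbp probe gained one in 4 of its 17. A replicate block gave 7346 differing probes and 7 member probes, with Npc2 lost (limma adjusted p = 0.0577) and Nceh1 gained (0.0276). The droplet list went from 5 to 8 differing genes under median centring, and between 4 and 7 without single arrays. Signs turned for Hsd3b1 (-0.14 under quantile normalization, -0.10 under median centring), Cyp17a1 (-0.34 to 0.0093 without 1 array), and, among member probes, only for some that had not passed: Lipe from base 2668 (-0.38 to 0.052 without 1 array), Lipe from base 1500 (-0.22 under quantile normalization, -0.15 under median centring, and -0.17 to 0.23 without 1 array), the dim Nceh1 probe (0.039 with normexp) and the dim Osbp probe (0.0079 with normexp). The cause was not tested. The dim Osbp probe, well above background on 1 PMSG-labelled array, is the member probe that detection limits.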
